A study of Glycine max with 12 samples.

Results

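PIF3 is a basic helix-loop-helix transcription factor that binds the light-activated form of phytochrome, the red and far-red light receptor of plants. In Arabidopsis the PIF proteins accumulate in darkness and are phosphorylated and degraded after phytochrome is activated by red light, while the far-red-rich light under neighbouring leaves inactivates phytochrome and lets some of them persist. PIF3 itself is known there for holding back chlorophyll synthesis in dark-grown seedlings and for promoting stem elongation, and its control is largely at the protein level, which messenger RNA does not show.

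The 4 soybean genes described here are Glyma19g40980, Glyma03g38390, Glyma10g28290 and Glyma20g22280, out of 30459 genes with a single entry in the deposited expression table. All 4 carry the name PIF3 there, with the Arabidopsis locus AT1G09530 as their closest match, and by the number in their identifiers they lie on chromosomes 19, 3, 10 and 20. The table names 6 genes PIF3 in all, and these 4 were chosen by the sign and size of their difference between weedy and control plots: Glyma19g40980 and Glyma03g38390 on the higher side, Glyma10g28290 and Glyma20g22280 on the lower side. That direction is therefore a description, and no test of it is given. The other 2 genes, Glyma17g35950 and Glyma19g41260, are the ones just outside the choice, with mean weedy minus control differences of 0.10 and 0.21 on the log2 scale, against 0.61 and 0.77 for the higher pair and -0.36 and -0.27 for the lower pair. All 4 genes passed the filter on low values.

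RNA sequencing was done on 12 leaf libraries of the soybean cultivar AG1631 from field plots near Brookings, 6 weedy and 6 control. Each library pooled newly opened trifoliate leaves shorter than 2 cm from 8 or more plants of 1 plot at the V3 stage, and there was 1 library per group in 2008 and in 2009 and 2 per group in 2010 and in 2011. In weedy plots the neighbours were velvetleaf with buckwheat in 2008 (near 300 per square metre) and 2009 (near 48), flax in 2010 (near 600), and velvetleaf with common sunflower in 2011 (near 160). Control plots were sprayed, with S-metolachlor alone the first season, sethoxydim alone in 2009, glyphosate alone in 2010, and these 3 plus imazethapyr in 2011, so that the absence of weeds and the herbicide cannot be told apart; the 2009 spraying carries a date after the sampling. Rows were 76 cm apart in 2008 and 2009, while 2010 and 2011 each had 1 plot of each group at 76 cm and 1 at 18 cm. A plot pair below is the weedy and the control plot of 1 season and 1 spacing, which gives 6 pairs, 4 at 76 cm and 2 at 18 cm.

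Values are the authors' log2 FPKM (fragments scaled by transcript length and library size), a scale per length on which genes can be compared. The same sorted values, 0.00 to 13.50 with a median of 3.22, occur in each of the 12 libraries, so each value also tells a gene's rank within its library. The read counts behind them are not part of the table, and the depth is unknown. The label of the weedy library of 2011 at 18 cm calls its second read file corrupt. Green-leaf genes were abundant, as the tissue label requires: the 15 genes matched to Rubisco small subunit, Rubisco activase and LHCB1 summed to between 13.09 and 15.17 (log2) per library. A search of the descriptions for leghemoglobin, the nodule oxygen carrier, found 0 entries, so no nodule marker was measured and nothing is said about nodule tissue. The 12 secondary wall cellulose synthases, marks of stem or petiole, summed to 6.55 to 7.70 in control and 6.29 to 7.25 in weedy libraries. In whole leaves, fewer cells of a type and less RNA per cell cannot be told apart.

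All 4 genes were expressed at middling levels. Glyma19g40980 had the highest mean, 3.96 ± 0.60 (SD, n = 12 libraries), with a median percentile of 70.2 among the genes of a library, and it was the highest of the 4 in 9 of 12 libraries. Glyma10g28290 and Glyma20g22280 both averaged 3.28, with SDs of 0.27 and 0.34 and median percentiles of 53.0 and 51.7, and their levels did not differ beyond their spread. Glyma03g38390 averaged 3.11 ± 0.74, at a median percentile of 41.7, and was the lowest of the 4 in 6 libraries and the highest in 0. The SDs of the higher pair were above those of the lower pair.

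Glyma19g40980 was higher in the weedy plot of all 6 pairs. In 2008 it stood at 2.72 in the control and 3.38 in the weedy plot, in 2009 at 4.14 and 4.93. At 76 cm it stood at 3.77 and 3.96 in 2010 and at 4.11 and 4.19 in 2011, and at 18 cm at 3.62 and 4.65 in 2010 and at 3.61 and 4.49 in 2011. The weedy plots at 18 cm and that of 2009 were the highest of all, the 2008 plots were the lowest of their groups, and the groups overlapped, because the control plots of 2009 and 2011 at 76 cm lay above the weedy plots of 2008 and of 2010 at 76 cm. With the season in the fit the mean difference was 0.61 ± 0.13 (SE, n = 6 libraries per group), a 1.52-fold level.

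Glyma03g38390 had a wider swing. It stood at 2.33 in the control and 2.24 in the weedy plot of 2008, and at 3.45 and 4.64 in 2009. At 76 cm it stood at 2.67 and 3.0 in 2010 and at 2.81 and 3.35 in 2011, and at 18 cm at 2.43 and 3.91 in 2010 and at 2.69 and 3.85 in 2011. The pair of 2008 was the only one of the 6 in which the weedy plot was not higher, and outside 2008 the weedy plots reached from 3.0 to 4.64. The groups overlapped through the low weedy plot of 2008 and the high control plot of 2009. The mean difference was 0.77 ± 0.19 (SE), a 1.70-fold level, and single pairs ranged from -0.09 to 1.48.

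Glyma10g28290 was lower in the weedy plot of all 6 pairs. Its control values were 3.14 in 2008, 3.40 in 2009, 3.40 and 3.60 in 2010 at 76 and 18 cm, and 3.74 and 3.48 in 2011, while the weedy values in the same order were 3.04, 3.09, 2.88, 2.92, 3.34 and 3.33. The weedy plots of 2008, 2009 and 2010 lay below every control plot, and the groups overlapped through the weedy plots of 2011. The mean difference was -0.36 ± 0.09 (SE), or -22.1% on the linear scale, and pairs ranged from -0.68 in 2010 at 18 cm to -0.10 in 2008.

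Glyma20g22280 was also lower in the weedy plot of all 6 pairs, by less. Its control values were 2.81, 3.43, 3.78, 3.83, 3.44 and 3.19 in that order of plots, and its weedy values 2.77, 3.13, 3.46, 3.38, 2.99 and 3.15. The difference was -0.04 in 2008 and in 2011 at 18 cm, and between -0.46 and -0.30 in the other pairs. Both plots of a pair moved with the season. The mean difference was -0.27 ± 0.07 (SE), or -17.1%, and pairs ranged from -0.46 to -0.04. As background to these signs, 2.88% of the 30456 tested genes were higher and 2.8% were lower in the weedy plot of all 6 pairs, 13.6% were higher in 5 or more, and the season-adjusted fit of weedy against control called 0.0% of them at an adjusted p under 0.05 (limma, Benjamini-Hochberg) and 10.8% at an unadjusted p under 0.05. Without either library of 2008 that fit called 24 genes, and without the 76 cm weedy library of 2010 it called 6.

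**Figure D1:**
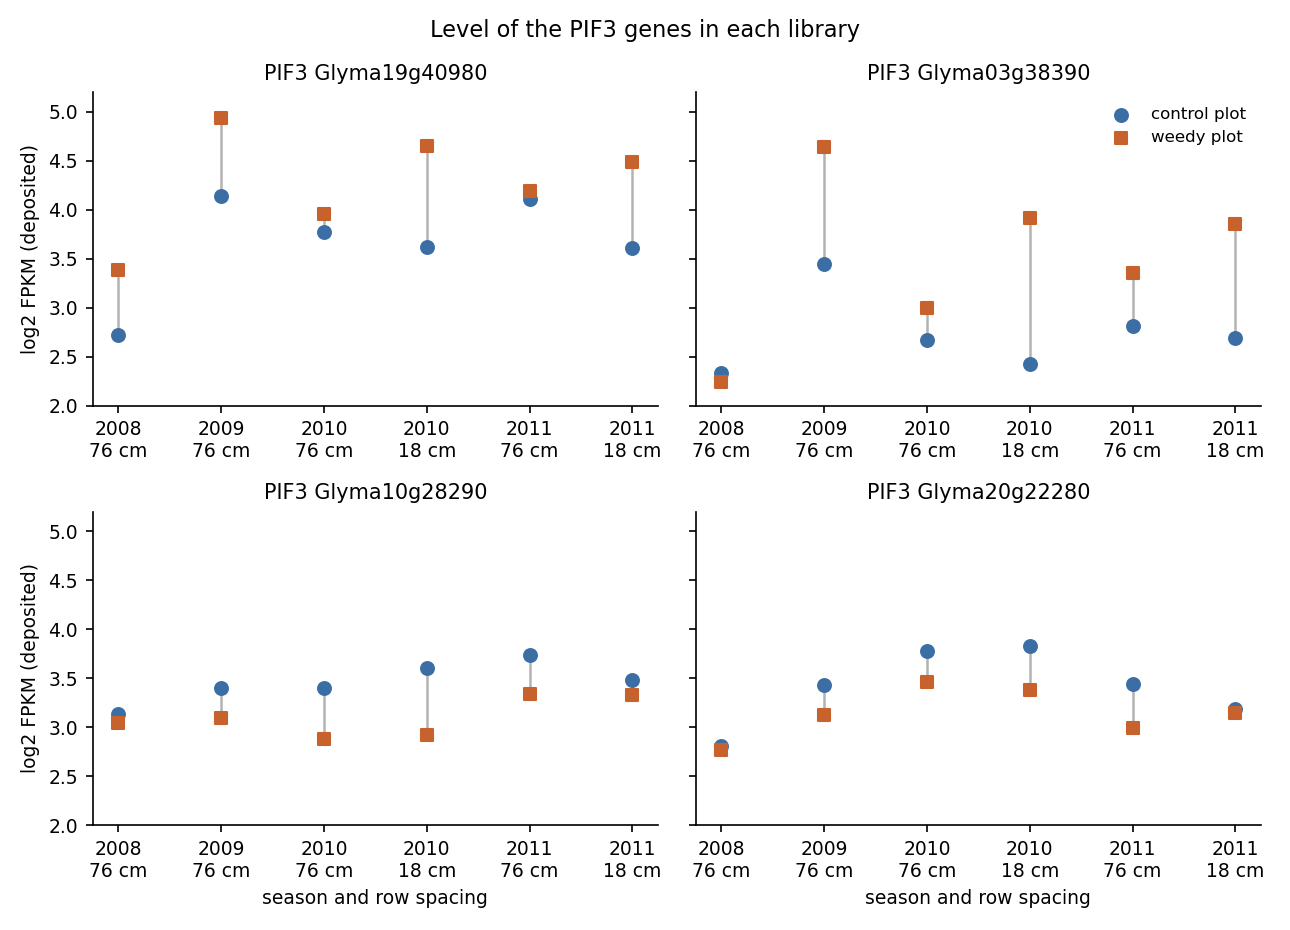
Deposited log2 FPKM (vertical axis) of the 4 PIF3 genes in the control (circles) and weedy (squares) plot of each season and row spacing (horizontal axis), 1 library per point, with a grey line joining the plots of a pair. Glyma19g40980 and Glyma03g38390 reach 4.93 and 4.64 in the weedy plot of 2009, while Glyma10g28290 and Glyma20g22280 stay between 2.77 and 3.83 in all 12 libraries.

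The authors' own comparisons, made within 2010 and within 2011, treated the 4 genes unequally. In the authors' deposited table Glyma19g40980 had a q value of 0.0113 in 2010 and 0.014 in 2011, and Glyma03g38390 had 0.0212 and 0.0171. In the authors' deposited table Glyma10g28290 had a q value of 8.53e-05 in 2010, the smallest of the 4 genes, and 0.156 in 2011, and Glyma20g22280 had 0.62 and 0.623. A q value under 0.05 was given to 2.46% of genes in 2010 and to 7.67% in 2011 in the authors' deposited table. The authors' deposited table also gives Glyma19g40980 the trend label up4, held by 0.046% of genes, and Glyma03g38390 the label up3, held by 0.023%, together 0.0689%. The lower pair has no label in the authors' deposited table, where 0.0919% of genes hold down3 and 0.181% hold down4. These values rest on the same plots that chose the genes.

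Taken by plot pair, the higher pair separated by row spacing in the seasons that had both spacings. The mean of Glyma19g40980 and Glyma03g38390 differed between weedy and control plots by 1.25 at 18 cm against 0.26 at 76 cm in 2010, and by 1.02 against 0.30 in 2011. In 2008 and 2009, when only 76 cm was sown, it differed by 0.29 and 1.00, so the 2009 pair at 76 cm was close to the smaller of those at 18 cm. The mean of the lower pair differed by -0.57 at 18 cm and -0.42 at 76 cm in 2010, and by -0.09 and -0.42 in 2011. In 2008 and 2009 it differed by -0.07 and -0.31. The spacing with the larger fall was thus 18 cm in 2010 and 76 cm in 2011. This rests on 1 plot pair per spacing and season, and a change of the spacing difference with season was not tested.

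The dependence on spacing is a separate contrast from the one that chose the genes and was tested in the 8 libraries of 2010 and 2011. The weedy minus control difference was larger at 18 than at 76 cm by 0.88 ± 0.20 (SE) for Glyma03g38390, with a 95% interval of 0.40 to 1.37, and by 0.82 ± 0.23 for Glyma19g40980, with an interval of 0.27 to 1.36. Neither passed over all genes (limma, adjusted p = 1.0 for both, unadjusted 0.00422 and 0.0103), where 0.0% of genes were called and 2.05% had an unadjusted p under 0.05. At 18 cm each group had 1 plot per season, and the weedy library of 2011 there is the one whose second read file is labelled corrupt. Row spacing also goes with the replicate number. Leaving out single libraries gave 0.73 to 1.04 for Glyma03g38390 and 0.65 to 0.99 for Glyma19g40980. With the libraries of 2008 and 2009 added, a setting chosen after the values were seen, the differences were 0.82 and 0.52. Whether these similar genes share reads is not stated, so they do not count as independent of each other. In the fit of the 8 libraries the same contrast was 0.05 (-0.55 to 0.64) for Glyma10g28290 and 0.14 (-0.35 to 0.62) for Glyma20g22280. Both intervals hold 0 and reach above the lower bounds of the higher pair. The difference between the pairs was not tested.

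**Figure D2:**
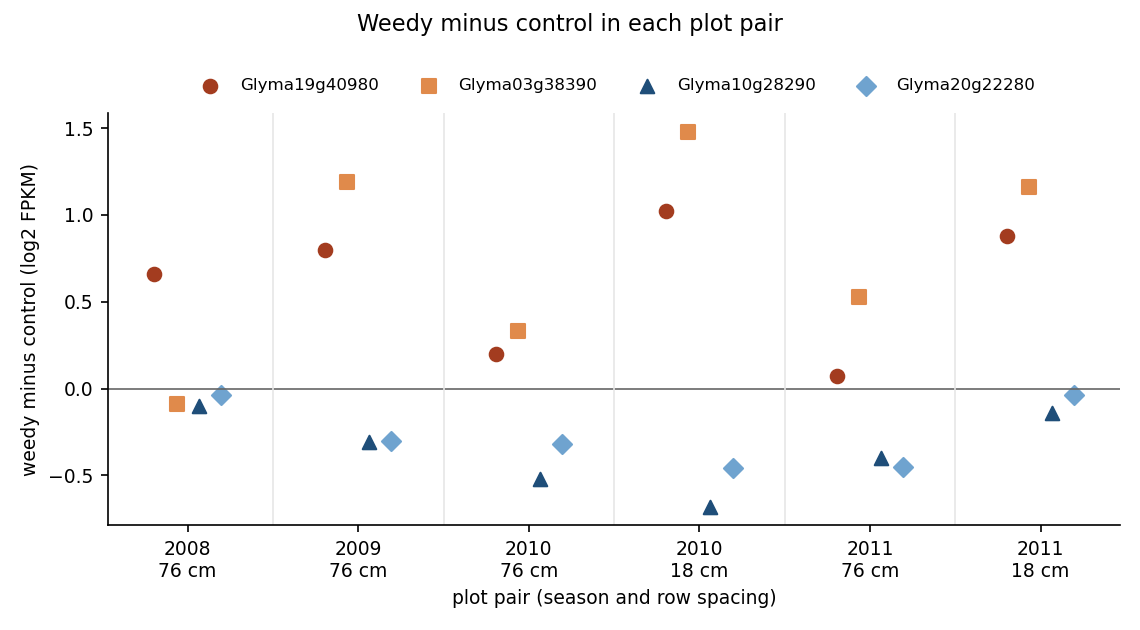
Weedy minus control difference in log2 FPKM (vertical axis) of each PIF3 gene in each of the 6 plot pairs (horizontal axis), 1 point per gene and pair. In 2010 and 2011 the points of Glyma19g40980 and Glyma03g38390 lie between 0.88 and 1.48 at 18 cm and between 0.07 and 0.53 at 76 cm, while those of Glyma10g28290 and Glyma20g22280 lie at or below -0.04 everywhere.

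The weed difference of none of the 4 genes was shown to depend on whether the season was 2010 or 2011. Its change, 2011 minus 2010, was -0.13 ± 0.36 (SE) for Glyma19g40980, -0.06 ± 0.42 for Glyma03g38390, 0.33 ± 0.18 for Glyma10g28290 and 0.14 ± 0.18 for Glyma20g22280, with limma adjusted p-values of 0.894, 0.963, 0.443 and 0.739. Over all genes 0.0% were called and 13.7% had an unadjusted p under 0.05, and without the 76 cm weedy library of 2010 the test called 273 genes. The intervals reached from -0.98 to 0.72 and from -1.04 to 0.93 for the higher pair, which is wider than the mean differences themselves. Leaving out single libraries gave -0.48 to 0.21 for Glyma19g40980 and -0.51 to 0.40 for Glyma03g38390, so no direction can be read. Row spacing alone, averaged over weedy and control plots, called 0.0% of genes (5.63% at an unadjusted p under 0.05), and the 4 genes differed between 18 and 76 cm by 0.26 ± 0.19 (Glyma03g38390), 0.09 ± 0.18 (Glyma19g40980), -0.01 ± 0.11 (Glyma10g28290) and -0.03 ± 0.09 (Glyma20g22280).

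Season moved 3 of the 4 genes. Glyma20g22280 (limma F test over 12 libraries, adjusted p = 0.000743), Glyma19g40980 (0.00153) and Glyma03g38390 (0.00635) differed between seasons, and Glyma10g28290 did not pass (0.0694), although it did without the 18 cm control library of 2010 (0.0304) or of 2011 (0.0404). Season changed 67.1% of all genes tested, so 3 of 4 is near that background. Glyma19g40980 averaged 3.05 in 2008, 4.53 in 2009, 4.0 in 2010 and 4.10 in 2011, and Glyma03g38390 averaged 2.29, 4.04, 3.0 and 3.17, so both were lowest in 2008 and highest in 2009, the season with the least rain before sampling (9.9 cm) and the warmest (27.2 °C). The 2008 season had the next least rain (12.4 cm) and was the coolest (23.9 °C). Means of 2008 and 2009 rest on 2 libraries each, and weather, weeds, herbicide, sampling day and year cannot be told apart.

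The lower pair parted between 2010 and 2011. Glyma20g22280 fell by 0.42 from 2010 to 2011 (SE 0.09, limma adjusted p = 0.00456), from a mean of 3.61 ± 0.23 (SD, n = 4) to 3.19 ± 0.19, whereas Glyma10g28290 was at 3.20 ± 0.36 and 3.47 ± 0.19, a difference of 0.27 ± 0.11 that did not pass (limma adjusted p = 0.0638) but was 0.35 and 0.33 and passed without the 18 cm control library of 2010 (0.0232) or of 2011 (0.0342). This contrast called 41.2% of all genes, 20.5% higher and 20.7% lower in 2011, and 50.4% had an unadjusted p under 0.05. Within each library, Glyma10g28290 minus Glyma20g22280 was -0.38 and -0.23 in the control plots and -0.58 and -0.46 in the weedy plots of 2010, and 0.30, 0.28, 0.35 and 0.18 in those of 2011. The 4 libraries of each season did not overlap, whatever the treatment and spacing; of single genes, 37.9% had no overlap between the libraries of these seasons. The difference between seasons was 0.69, with an exact permutation p of 0.0286, the smallest that 4 against 4 libraries allow, and 0.0857 after Benjamini-Hochberg adjustment over the 3 differences compared in this way, a comparison chosen after the values were seen. In 2008 the difference was 0.33 and 0.27, and in 2009 it was -0.02 and -0.04, so control and weedy plots of a season lay close together throughout.

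The higher pair kept its order instead. Glyma19g40980 was above Glyma03g38390 in 12 of 12 libraries, by 0.29 to 1.3 with a mean of 0.85 ± 0.31 (SD), and that gap was 1.00 ± 0.19 in 2010 and 0.93 ± 0.27 in 2011 (exact permutation p = 0.686, also 0.686 after adjustment). It was smaller in the weedy than in the control plot of 5 of the 6 pairs, at 0.29 against 0.69 in 2009 for example, and larger in 2008, at 1.14 against 0.38.

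Set against each other, the pairs changed places. The mean of the higher pair minus that of the lower pair was -0.45 in the control plot of 2008, -0.38 and -0.69 in those of 2010, and -0.13 and -0.18 in those of 2011, but 0.38 in that of 2009. In weedy plots it was -0.09 in 2008, 1.68 in 2009, 0.31 and 1.13 in 2010, and 0.60 and 0.93 in 2011. The lower pair therefore had the higher mean level in 5 of 6 control plots and the other pair in 5 of 6 weedy plots. The choice of genes fixed the direction of the change, so these counts partly follow from it and are a description. The change from control to weedy plot ranged from 0.36 in 2008 to 1.82 in 2010 at 18 cm. Between 2010 and 2011 this difference was 0.21 (exact permutation p = 0.657, 0.686 after adjustment).

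**Figure D3:**
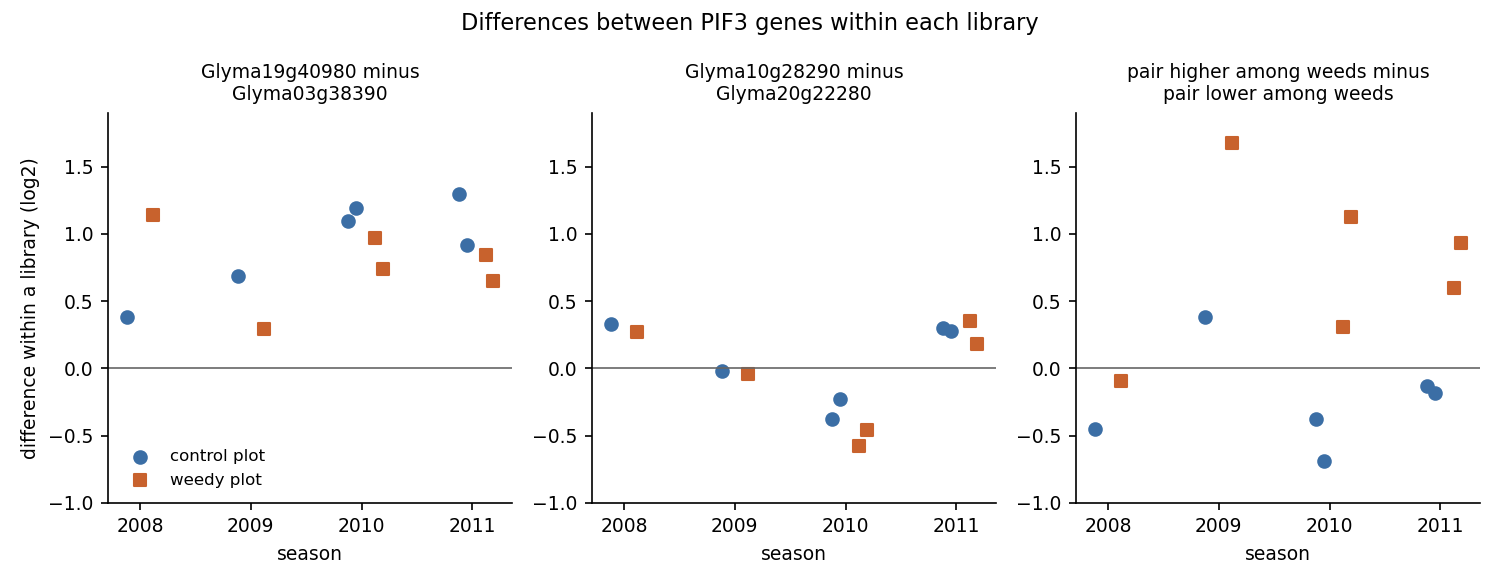
Differences in log2 FPKM between PIF3 genes within each library (vertical axis) by season (horizontal axis), for control (circles) and weedy (squares) plots, with the 18 cm plots set slightly to the right. Glyma10g28290 minus Glyma20g22280 lies between -0.58 and -0.23 in 2010 and between 0.18 and 0.35 in 2011, Glyma19g40980 minus Glyma03g38390 is above 0 in all 12 libraries, and the difference between the pairs runs from -0.69 to 1.68.

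After the season mean was taken from each value, Pearson's r over the 12 libraries was 0.94 between Glyma10g28290 and Glyma20g22280 and 0.88 between Glyma19g40980 and Glyma03g38390, and between genes of different pairs it ran from -0.78 to -0.63. These values still hold the treatment difference by which the pairs were chosen, so their signs follow from the choice. With the treatment mean taken out as well, r was 0.80 and 0.64 within the pairs and -0.35 to 0.27 between them. These libraries share seasons and plots, genes with the same Arabidopsis match may share reads, and r is given as a description.

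By the season-centred r, which holds that treatment difference too, the 3 genes most like Glyma03g38390 were YLS2 Glyma16g22650 (r = 0.99, weedy minus control 0.56 ± 0.14), a glycosyl hydrolase, Glyma11g10070 (0.97), and T11I11.11 Glyma06g10880 (0.97). Those most like Glyma19g40980 were the Ole e 1 and extensin family protein MWD9.23 Glyma12g09660 (0.96), the unnamed Glyma08g07310 (0.95) and the sulfiredoxin SRX Glyma20g02350 (0.95), an enzyme that repairs oxidised peroxiredoxins. Glyma10g28290 was most like the pheophytinase MAC12.25 Glyma12g01320 (0.97), an enzyme of chlorophyll breakdown, the splicing factor gene U2AF35B Glyma12g30590 (0.97) and the DnaJ-domain gene F14G9.9 Glyma03g39200 (0.96). Glyma20g22280 was most like MYB3R-5 Glyma01g42650 (0.99), a Myb factor, PMZ Glyma13g04630 (0.98), an AN1-like zinc finger gene, and the FKBP-type isomerase K15N18.12 Glyma08g11240 (0.97), whose own weedy minus control difference was -1.06 ± 0.21.

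The 2 PIF3 genes outside the choice had lower mean levels. Glyma17g35950 averaged 2.45 ± 0.38 (SD, n = 12) and was higher in the weedy plot of 2 of 6 pairs, and Glyma19g41260 averaged 1.89 ± 0.48 and was higher in 5 of 6. The season-centred r of Glyma19g41260 was 0.68 with Glyma19g40980 and 0.61 with Glyma03g38390 (0.58 and 0.42 with the treatment mean also taken out), and -0.36 and -0.34 with the lower pair. That of Glyma17g35950 was 0.38 and 0.19 with the higher pair and -0.40 and -0.20 with the lower pair. Season changed both (limma F test, adjusted p = 0.0275 and 0.00259). Glyma19g41260 fell by 0.71 ± 0.16 (SE) from 2010 to 2011 (limma adjusted p = 0.0065). Of the 6 PIF3 genes, it and Glyma20g22280 were the 2 that fell between those seasons and 0 rose, against 20.7% of all genes that fell and 20.5% that rose.

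Of the other factors of the PIF family, some differed by as much as the lower PIF3 pair. Of 14 genes matched to PIF1, PIF4, PIF7, PIF8, PIL1 or SPATULA, 9 lay above 0, their median difference was 0.12 against -0.01 over all genes, and 0 passed; at an unadjusted p under 0.05 there were 4, of which 3 were higher, against 10.8% of all genes. PIF7 Glyma06g21500, in Arabidopsis a main PIF of the shade response, differed by 0.46 ± 0.16. Its level was low, 0.74 ± 0.55 (SD) in control against 1.20 ± 0.59 in weedy plots. The 2009 control value was 0.00, at the bottom of the scale, and that pair differed most, by 1.20, against -0.11 to 0.67 in the others. The PIF8 match Glyma01g15930, named after its values were seen, differed by 0.42 ± 0.18. The SPATULA gene Glyma01g39450, a bHLH factor of organ growth, differed by -0.42 ± 0.15 and was lower in 6 of 6 pairs. PIL1 Glyma10g27910, in Arabidopsis a gene quickly induced by shade and named here after its values were seen, differed by 0.38 ± 0.15, from -0.32 in 2010 at 76 cm to 1.16 in 2009. Both PIF4 genes, Glyma18g14530 and Glyma08g41620, higher in 2011 than in 2010 by 0.87 and 0.60 (limma adjusted p = 0.00291 and 0.00997), were among the 8 of these 14 that rose between those seasons, while 0 fell, against 20.5% and 20.7% of all genes; they too are named after their values were seen.

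The receptors upstream differed little between treatments. The 5 phytochrome genes, 2 of them PHYA, 2 PHYB and 1 PHYE, differed by -0.10 to 0.11 with a median of 0.02. Of these, 0 passed (limma) and 0 had an unadjusted p under 0.05, against 10.8% of all genes. PHYB Glyma15g14980, of the phytochrome class that senses shade in Arabidopsis, stood at 3.0 ± 0.06 (SD) in control and 2.91 ± 0.14 in weedy plots, and PHYE Glyma09g11600 at 1.93 ± 0.32 and 2.04 ± 0.23. Of 7 cryptochrome genes, the blue light receptors, 5 lay above 0, 0 passed (1 unadjusted), and CRY1 Glyma06g10830 differed by 0.15 ± 0.07 and CRY2 Glyma02g00830 by 0.12 ± 0.06. The 28 listed genes that act on PIF proteins were the PPK kinases, LRB and EBF ubiquitin ligase subunits and DELLA repressors. Of these, 14 lay above 0, the median was 0.00 and 0 passed. An unadjusted p under 0.05 was found for 2, against 10.8% of all genes. Among them EBF1 Glyma06g07200 differed by 0.20 ± 0.08 and the PPK4 match Glyma04g09070 by -0.16 ± 0.06, each with 1 sign in 6 of 6 pairs.

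Genes of the COP1 and HY5 branch, which in Arabidopsis sets the balance between growth in darkness and in light, had 19 of 25 above 0, a median of 0.05 and 0 that passed; at an unadjusted p under 0.05 there were 4 higher and 2 lower genes, against 10.8% of all genes. FHY1 Glyma07g16070, which carries phytochrome A into the nucleus, differed by 0.48 ± 0.14 and SPA3 Glyma12g25240, a partner of COP1, by 0.27 ± 0.08, both higher in 6 of 6 pairs. The 2 lower ones were HY5 genes, named after their values were seen, for the factor that promotes the light-grown form of development. Glyma18g14750 differed by -0.23 ± 0.09, with pairs from -0.74 in 2010 at 76 cm to -0.06. Glyma08g41450 differed by -0.16 ± 0.06, with pairs from -0.39 to -0.00, the last a near tie in 2009. Both were lower in 6 of 6 pairs. Of 19 genes of shade avoidance, 10 lay above 0, the median was 0.00 and 0 passed. At an unadjusted p under 0.05 there were 2, against 10.8% of all genes. The one with the smallest p was ATHB2 Glyma01g41580, a homeodomain factor induced by shade in Arabidopsis, which differed by 0.46 ± 0.14. Its pairs differed by 1.15 at 18 cm and -0.19 at 76 cm in 2010, by 0.60 and 0.32 in 2011, and by 0.63 and 0.23 in 2008 and 2009. The auxin synthesis gene YUC2 Glyma07g09500 differed by 0.25 ± 0.09.

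Of 13 chlorophyll synthesis genes, whose Arabidopsis counterparts PIFs hold back in darkness, 12 lay above 0. The median of the 13 was 0.14, against -0.01 over all genes, and 0 passed. At an unadjusted p under 0.05 there were 2, against 10.8% of all genes. GUN4 Glyma12g05650, which aids magnesium insertion, differed by 0.34 ± 0.15 and HEMA1 Glyma06g09630, of the first committed step, by 0.14 ± 0.06. The green-leaf markers lay on the same side, 12 of 15 above 0 with a median of 0.22. Of these 15, 0 passed and 3 had an unadjusted p under 0.05. The 2 with the smallest p were LHCB1 genes Glyma16g27990 (0.85 ± 0.27) and Glyma09g07310 (0.61 ± 0.23). Those not above 0 were Rubisco small subunit genes Glyma19g06370 (-0.00 ± 0.27) and Glyma19g06340 (-0.09 ± 0.23) and LHCB1 Glyma08g08770 (-0.02 ± 0.31). The secondary wall cellulose synthases lay on the other side, 2 of 12 above 0 with a median of -0.34. Of these 12, 0 passed and 1 had an unadjusted p under 0.05. The smallest p were those of Glyma08g12400 (-0.85 ± 0.33) and Glyma04g23530 (-0.43 ± 0.22). The part of both lists in the PIF3 values was not tested.

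**Figure D4:**
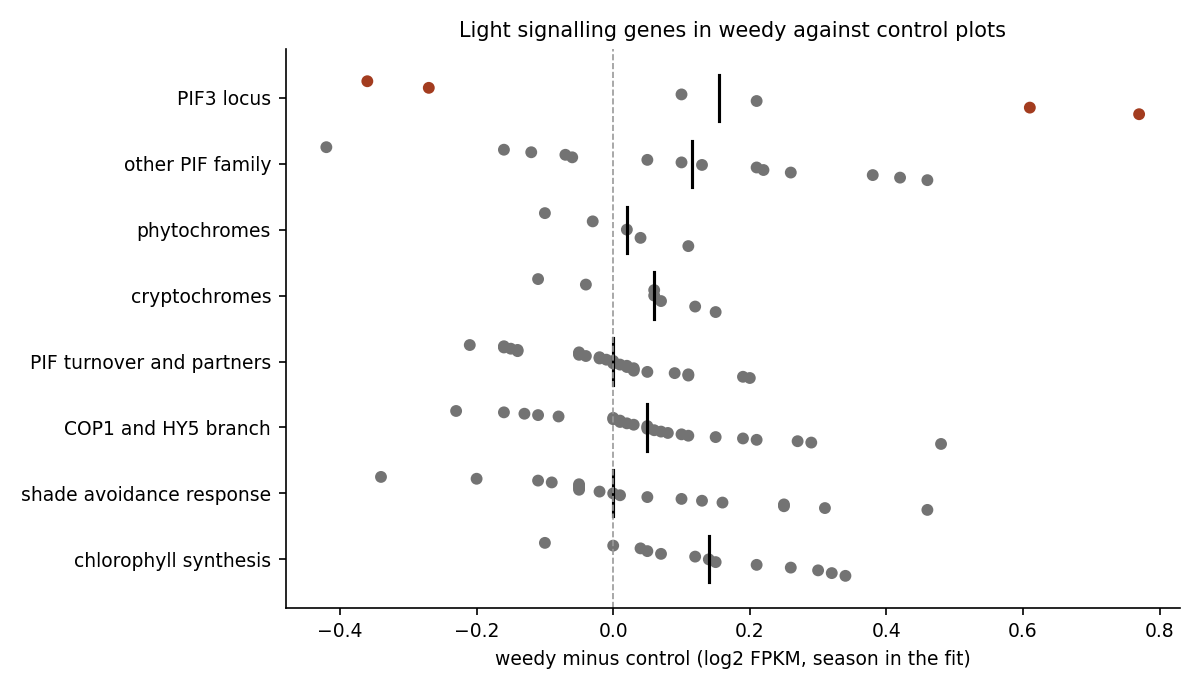
Weedy minus control difference in log2 FPKM with season in the fit (horizontal axis) of each gene in 8 light signalling lists (vertical axis), with a black bar at the median of each list and the 4 described PIF3 genes in red. The red points at 0.61 and 0.77 lie beyond every other gene shown, and list medians lie between 0.00 and 0.15.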

How the data were processed

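RNA was extracted from frozen leaf with Trizol and a column kit and read on a HiSeq2000, per the labels' protocols; strand is not stated. The authors deposited 1 table, whose library columns are log2 FPKM values per the file headers, made with the Tuxedo programs and annotated from Phytozome; TopHat 1.0, Cufflinks 1.0 and Cuffdiff 1.0 are given per the submitters' processing notes. The genome build and the step that gave all libraries 1 distribution are not given in the sources used here. The deposited p-value and q-value columns come from Cuffdiff, per the file headers, and the deposited log2 ratio columns equal the differences of the library columns (largest gap 0.000000). Column headings say Row or Drill, read here as 76 and 18 cm.

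Of 30498 entries, 39 that share 19 identifiers were left out. The 30456 genes that reached a log2 value of 1 in 3 or more libraries were tested on the deposited log2 scale. The model was limma 3.58.1 (R 4.3.3, trend and robust options), with two-sided tests and Benjamini-Hochberg adjustment over all genes. Weedy minus control, season and 2011 minus 2010 used 12 libraries, spacing and the interactions 8. The fits were tested on simulated data. The exact permutation tests are two-sided over the 70 possible assignments of 8 libraries to 2010 and 2011, and were added after the data were seen.

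The members, the lists and the tests were chosen with earlier results of these data known. The rule for named genes took all genes named PIF3, per list the 2 genes with the smallest p and the 3 genes of highest season-centred r with each member. Arabidopsis matches are the table's. Of its identifiers, 0 matched the supplied RefSeq table, so no sequence is shown. Nothing says whether plots were randomised, and p-values measure the spread between these plots.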

Additional observations from a re-analysis of the deposited data

Results flagged for a closer look

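Glyma19g40980 stood at 2.72 in the control plot of 2008, apart from the other 5 control plots, of which the nearest was at 3.61. This gap was 0.630 of the range of the group, against a critical value of 0.625 for 6 samples, in 12 sets of 6 values examined; chance alone sets apart about 1 such set in 20.

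Glyma03g38390 had a weedy minus control difference of -0.09 in 2008, while the pairs of every other season were above 0. This rests on 1 pair of plots and the difference between seasons was not tested.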

How the results depend on the processing

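Of 400 values of the 4 PIF3 genes under other settings, 396 kept their direction where called and their side of the threshold, 0 reversed and 4 newly passed. All 4 concern Glyma10g28290: without the 18 cm control plot of 2010 or of 2011 its season test had an adjusted p of 0.0304 and 0.0404, and its 2011 minus 2010 difference was 0.35 and 0.33 (adjusted p = 0.0232 and 0.0342); the cause was not tested. For weedy against control, row spacing and the weed interactions, a kept value is only one that stayed uncalled. The main fits of those contrasts called 0.0% of all genes, so there the count says little about stability. Leaving out a library or a year gave weedy minus control differences of 0.52 to 0.69 for Glyma19g40980, 0.64 to 0.94 for Glyma03g38390, -0.41 to -0.24 for Glyma10g28290 and -0.32 to -0.21 for Glyma20g22280. Uncalled differences near 0 changed sign when single libraries were left out: 2011 minus 2010 of Glyma19g40980 ran from -0.03 to 0.23, and its row spacing difference from -0.08 to 0.25.

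Over all genes, the 0 calls of weedy against control became between 0 and 24 when single libraries were left out and 24 without the year 2008. The 0 calls for the weed effect of 2011 against 2010 became between 0 and 273, the highest without the 76 cm weedy plot of 2010. With the replicate block, weedy against control again gave 0 calls, the season test gave 19404 and 2011 against 2010 gave 12532. The replicate number stands for row spacing, and same-numbered plots did not deviate together (r of -0.0478 in 2010 and 0.0484 in 2011 over genes). Depth is unknown, and 1 or 2 plots per group and season limit every comparison within a season.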
